A study of Mus musculus with 6 samples.

Results

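The beta 2 integrin family was followed through 6 of the 32285 genes in the count tables. These were the alpha chains Itgal (CD11a), Itgam (CD11b), Itgax (CD11c) and Itgad (CD11d), the shared beta chain Itgb2 (CD18), and Icam1, a ligand of the family. The members were taken by symbol, all 6 were found, and their UMIs (unique molecular identifiers, 1 per captured transcript) were counted per mouse in macrophage, monocyte, T, B, NK and dendritic nuclei, with endothelial nuclei beside them as background. The family was chosen from values in these same libraries, because Itgad served to describe a macrophage state in the study and the chains paired with Itgb2 appeared in its inferred complement signalling. The levels in macrophages and their differences between groups are therefore given as a description, and nothing is supported with them.

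The nuclei came from snap-frozen livers of 6 male DIAMOND mice, a cross of 129A1/SvIm and C57BL/6J that develops fatty liver disease and then liver tumors on a high-fat diet with sugar water. All mice began their diets at 2 months of age, and each group held 2 mice. Ctrl mice ate standard chow for 40 weeks, Pre-T mice the high-fat Western diet with sugar water for 40 weeks, before tumors developed, and Post-T mice the same diet for 48 weeks, after tumors had developed. Diet duration and tumor stage changed together between Pre-T and Post-T and cannot be told apart, and the Post-T titles name a tumor where the tissue label reads liver, so which tissue those libraries hold cannot be told apart either.

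Beta 2 integrins are adhesion receptors of leukocytes, each made of 1 alpha chain and the beta chain CD18. They rest in a bent form and are switched on from inside the cell, through talin and kindlin, before they bind. Itgal with Itgb2 forms LFA-1, which binds Icam1 and serves lymphocyte arrest and contact with other cells. Itgam with Itgb2 forms Mac-1 (complement receptor 3) and Itgax with Itgb2 forms complement receptor 4, both of which take up particles coated with complement fragments. Itgad with Itgb2 is found on subsets of tissue macrophages. In the healthy liver the resident macrophages are Kupffer cells, marked in the mouse by Clec4f, Timd4 and Vsig4.

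Of the 4 alpha chain genes, 3 lie side by side. On mouse chromosome 7 of GRCm38, all on the forward strand, Itgam spans 128062640 to 128118491, Itgax 128129547 to 128150657 and Itgad 128154376 to 128223816. The gaps between them are 11.1 kb and 3.7 kb, and Itgal lies 727.5 kb before Itgam, at 127296260 to 127335138. Itgb2 is on chromosome 10 (77530252 to 77565708) and Icam1 on chromosome 9 (21015985 to 21028817). The body of Itgad holds 4 genes of the opposite strand that are also in the count tables: Gm39091, 4931431B13Rik, Cox6a2 and Gm44850. Use of strand in the counting is not given in the sources used here, so reads of Itgad and of these genes might not be separable.

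RefSeq promoter sequences were at hand for 3 of the 6 members, and they are shown because Itgam and Itgax are neighbours whose levels differed between classes, with Icam1, the ligand, set beside them. The bases upstream of the first annotated start are printed 5′ to 3′ on the forward strand (GRCm38.p6), with capitals for matches to 3 motifs searched on both strands.
Itgam, chr7:128062390-128062639: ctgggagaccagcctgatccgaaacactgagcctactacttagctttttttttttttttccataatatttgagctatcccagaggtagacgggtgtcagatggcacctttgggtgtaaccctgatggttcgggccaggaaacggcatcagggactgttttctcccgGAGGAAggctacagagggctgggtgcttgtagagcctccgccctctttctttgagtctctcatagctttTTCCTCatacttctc
Itgax, chr7:128129300-128129525: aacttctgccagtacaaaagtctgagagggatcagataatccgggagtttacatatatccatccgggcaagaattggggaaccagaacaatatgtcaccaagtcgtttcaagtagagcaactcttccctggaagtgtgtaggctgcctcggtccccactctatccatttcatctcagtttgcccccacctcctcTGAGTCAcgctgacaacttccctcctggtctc
Icam1, chr9:21015690-21015939: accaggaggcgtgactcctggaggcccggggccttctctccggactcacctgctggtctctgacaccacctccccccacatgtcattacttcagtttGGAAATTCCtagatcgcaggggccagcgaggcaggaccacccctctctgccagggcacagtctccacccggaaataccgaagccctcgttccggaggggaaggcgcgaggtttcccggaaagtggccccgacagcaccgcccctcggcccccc

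The Itgam window held GAGGAA, the core letters of many PU.1 sites, once on the forward strand 84 bases before the start and once on the reverse strand 15 bases before it. The Itgax window held TGAGTCA, an AP-1 type match to TGANTCA, 32 bases before the start. The Icam1 window held GGAAATTCC, an NF-kappaB type motif, 153 bases before the start. The same letters occurred in 23.3%, 6.75% and 0.286%, respectively, of 32851 RefSeq promoters, so the first motif is common and the last rare. Each promoter sequence runs from 250 bases before the start to 50 after it, and only the 250 before it were counted. The motifs were chosen after the sequences had been read, no 2 matches overlap, and a match is a description of letters, not a binding site.

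The 6 libraries held 41882 barcodes, 5638 to 8469 each, with 22453658 to 40307564 UMIs per library, and 39012 nuclei with over 200 and under 5000 genes were kept. Any 2 libraries shared 7 to 21 barcodes. Clusters were named from marker lists with the 6 members kept out of the variable genes, which gave 2821 macrophage, 1103 monocyte, 1247 T, 818 B, 272 NK, 182 conventional dendritic, 192 plasmacytoid dendritic and 5204 endothelial nuclei. A further 5905 nuclei in immune clusters stayed unnamed. Their clusters showed markers of 2 classes, under 3 markers of the best class, or leading genes shared with a cluster that is not immune. The NK cluster also had 7 raised T markers and the plasmacytoid cluster 5 raised conventional dendritic markers, and both were named by their leading genes. Of the 2443 Itgad UMIs in kept nuclei, 64.1% were in macrophages and 30.3% in nuclei of no named class, so the class values below leave out part of the signal. The macrophage markers gave 8668 to 11028 UMIs per 1000000 (CPM) in Ctrl macrophages, 5862 to 6985 in Pre-T and 2321 to 4473 in Post-T, and of the 12 markers only Gpnmb in Ctrl 1 and Marco in Pre-T 1 were at 0. Macrophage nuclei of every Western diet mouse thus carried less of the marker list than those of Ctrl.

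**Figure D1:**
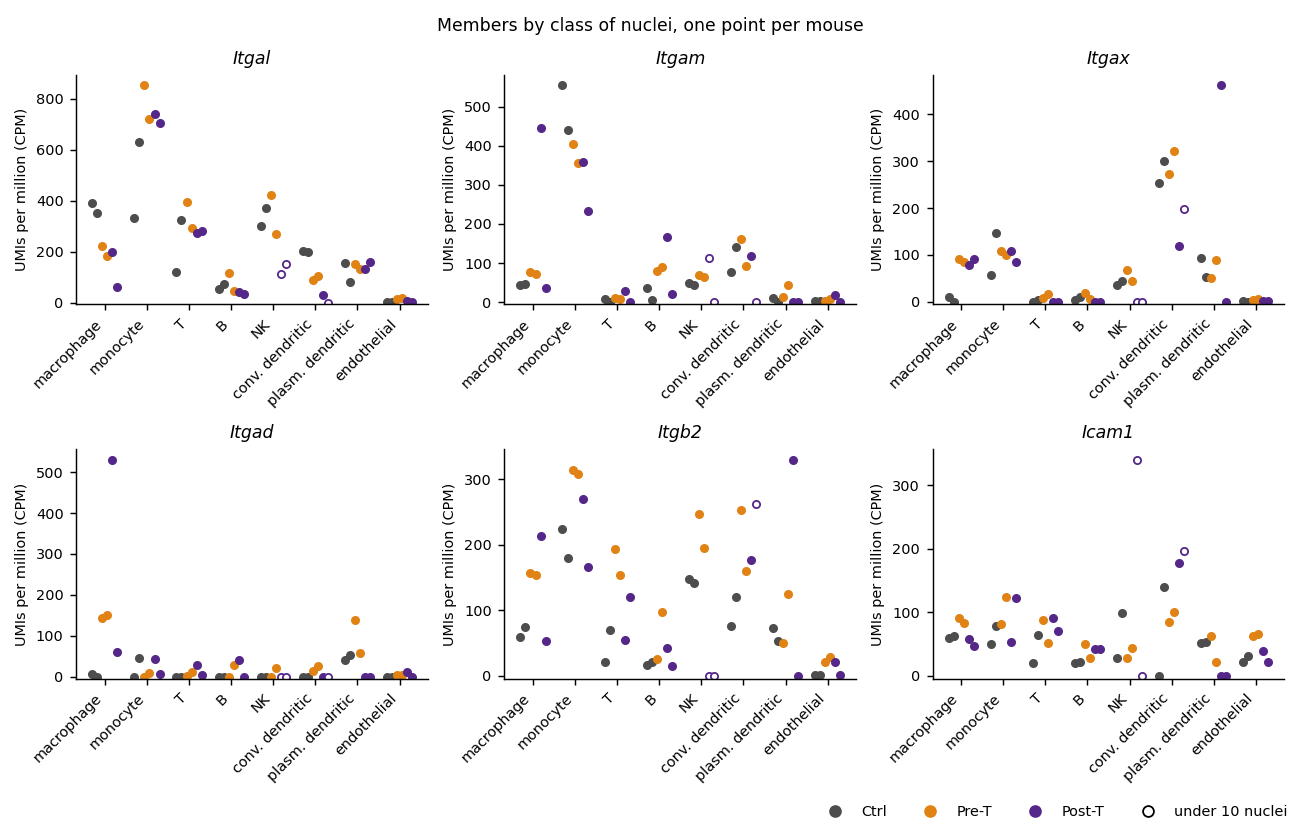
The 6 members in 8 classes of nuclei, as CPM, the UMIs of a gene per 1000000 UMIs of the class, with 1 point per mouse coloured by group and open points for classes of under 10 nuclei. On average over mice Itgal and Itgam were highest in monocytes, Itgax in conventional dendritic nuclei and Itgad in macrophages, but Ctrl 1 held more Itgal and Post-T 1 more Itgam in macrophages than in monocytes.

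Each member had its own order over the classes, a description with no test because the classes are clusters of these nuclei. Levels are CPM, the UMIs of a gene per 1000000 UMIs of that class in that mouse, and they are compared between classes and mice but not between genes, since longer genes can capture more nuclear RNA. Classes of at least 10 nuclei in a mouse enter the means that follow. Itgal averaged 664 CPM in monocytes (331 to 853, n = 6 mice), 342 in NK nuclei (n = 4), 281 in T nuclei (n = 6) and 235 in macrophages (n = 6). Each of these neighbours overlapped the next over mice. Further down the order, neighbours did not overlap between neutrophils and plasmacytoid dendritic nuclei (219 and 135 CPM), between B nuclei and fibroblasts (61.5 and 10.9 CPM), and between endothelial and erythroid nuclei (9.02 and 0 CPM). The chain of LFA-1 was thus found in every leukocyte class.

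Itgam, the Mac-1 chain, averaged 391 CPM in monocytes (233 to 555, n = 6), 368 in neutrophils (n = 4), 121 in macrophages (36.4 to 446, n = 6) and 118 in conventional dendritic nuclei (n = 5), with every neighbour overlapping. Itgax, the usual marker of dendritic cells, averaged 253 CPM in conventional dendritic nuclei (118 to 321, n = 5), 101 in monocytes (57.9 to 147, n = 6) and 59.3 in macrophages (0 to 91.5, n = 6). In plasmacytoid dendritic nuclei Itgax averaged 124 CPM, which rested on Post-T 1, at 462 CPM from 7 UMIs, while the 4 Ctrl and Pre-T mice held 50.2 to 92.6. Itgad averaged 148 CPM in macrophages (0 to 530, n = 6) and 48.6 in plasmacytoid dendritic nuclei (0 to 138, n = 6), with overlap between these classes. Itgb2, the chain common to all 4 receptors, averaged 244 CPM in monocytes (165 to 315, n = 6), 118 in macrophages (52.9 to 214, n = 6), 102 in T nuclei (20.6 to 194, n = 6) and 35.8 in B nuclei (14.1 to 96.5, n = 6), with each neighbour in its order overlapping.

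Endothelial nuclei, which are not known to make beta 2 integrins, were the background. Itgad was at 0 CPM in both Ctrl mice, 3.63 and 4.64 in Pre-T and 10.7 and 0.335 in Post-T. Itgb2 was at 1.24 and 1.31 CPM in Ctrl, 20.9 and 28.4 in Pre-T and 20.5 and 1.33 in Post-T, and the monocyte markers there gave 25.8 to 39.9 CPM in Ctrl, 70.8 to 100 in Pre-T and 13.3 to 48.4 in Post-T. The background thus was above Ctrl in both Pre-T mice and in Post-T 1, as several members were in leukocytes, and its part in those results was not tested. No member was called there by edgeR (4, 2 and 2 of 6 at an unadjusted p under 0.05), where 0.376%, 8.51% and 3.19% of all genes were called for Pre-T with Ctrl, for Post-T with Ctrl and for Post-T with Pre-T. DESeq2 called Itgb2 in Pre-T and Itgad in Post-T against Ctrl in these nuclei.

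Of the 5 immune classes tested, macrophages had the largest fitted difference from Ctrl, that of Itgad. In the endothelial background the fitted difference of Itgad was larger than in macrophages for Pre-T and smaller for Post-T. The log2 fold changes of Itgad there were 5.90 (SE 2.26) in Pre-T and 6.26 (SE 2.22) in Post-T. They rest on 13 and 14 UMIs against 0 in Ctrl and so depend on the prior count. Summed over mice, Itgad was at 4.28 and 3.32 CPM there, against 148 and 371 in macrophages. The log2 fold changes of Itgb2 in endothelial nuclei were 4.04 and 2.87, against 1.31 and 1.26 in macrophages. Itgad was at 6.25 and 0 CPM in Ctrl 1 and 2 (2 and 0 UMIs), 144 and 150 in Pre-T 1 and 2 (262 and 369 UMIs), and 530 and 59.9 in Post-T 1 and 2 (882 and 51 UMIs). All 4 Western diet mice lay above both Ctrl mice, and the Post-T mice lay on either side of the Pre-T mice. Summed over mice, the ratio to Ctrl was 42.6 in Pre-T (counting interval 11.7 to 353) and 107 in Post-T (29.6 to 886), and with 2 Ctrl UMIs the fitted log2 fold changes of 5.45 (SE 1.20) and 6.61 (SE 1.18) depend on the prior count. The share of macrophage nuclei with an Itgad UMI was 0.741% and 0% in Ctrl (0 of 114 nuclei, which allows up to 2.63%), 14.3% and 17.2% in Pre-T and 54.9% and 5.77% in Post-T. Thinned to 500 UMIs per nucleus, with no nucleus lost, these shares were 0.741%, 0%, 6.44%, 6.72%, 21.7% and 1.10%. Endothelial nuclei gave 0% to 1.69%, where the median nucleus had 1182 to 2025 UMIs and a macrophage nucleus 1979 to 2866.

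**Figure D2:**
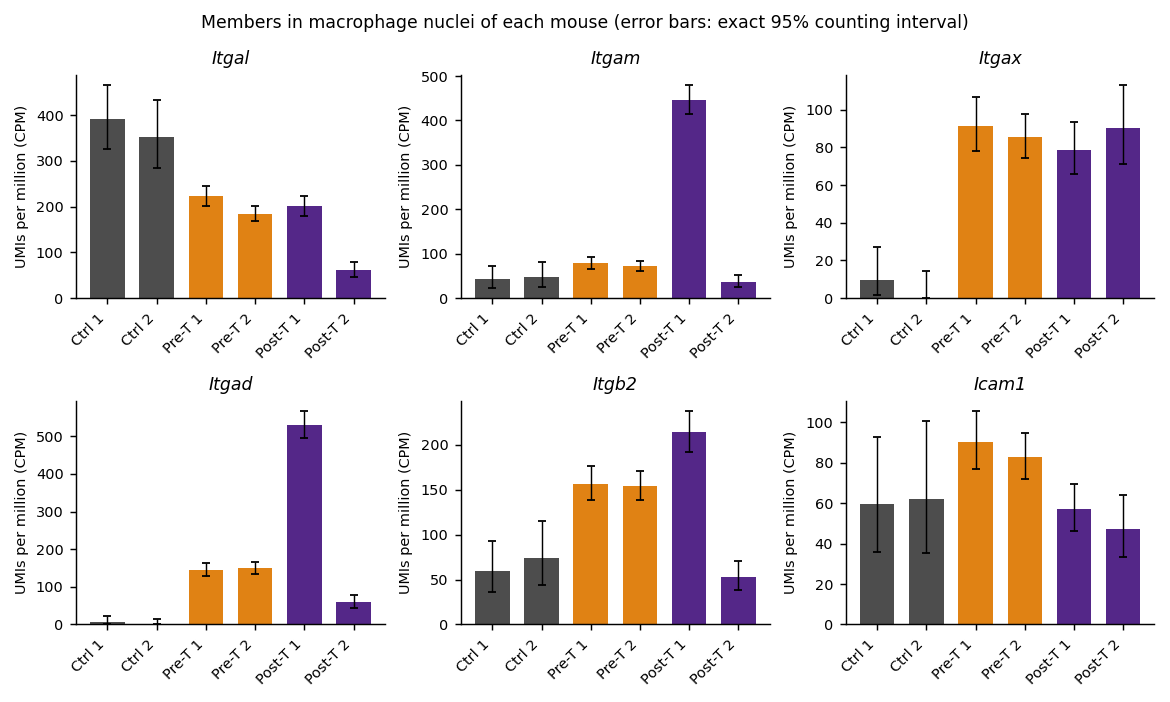
The 6 members in macrophage nuclei of each mouse, as CPM, with exact 95% intervals that cover counting error only. Itgax stood at 78.7 to 91.5 in all 4 Western diet mice against 0 and 9.38 in Ctrl, whereas Itgad and Itgam were highest in Post-T 1 alone.

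Itgax, the chain of complement receptor 4, was at 9.38 and 0 CPM in Ctrl macrophages (3 and 0 UMIs), 91.5 and 85.6 in Pre-T and 78.7 and 90.5 in Post-T. The 4 Western diet mice were close to each other and none overlapped Ctrl. The ratio to Ctrl was 16.97 in Pre-T (counting interval 5.76 to 82.7) and 15.9 in Post-T (5.37 to 77.8), with fitted log2 fold changes of 4.16 (SE 0.65) and 4.26 (SE 0.65). Itgal moved the other way. It was at 391 and 353 CPM in Ctrl, 223 and 185 in Pre-T and 201 and 61.1 in Post-T, so every Western diet mouse lay below both Ctrl mice, with log2 fold changes of -0.80 (SE 0.45) and -1.26 (SE 0.45) that did not pass the threshold.

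Itgam was at 43.8 and 46.5 CPM in Ctrl macrophages, 78.3 and 71.8 in Pre-T and 446 and 36.4 in Post-T. Post-T 1 alone was far above the rest, and Post-T 2 was the lowest of the 6 mice. Itgb2 was at 59.4 and 73.7 CPM in Ctrl, 157 and 154 in Pre-T and 214 and 52.9 in Post-T, which again put the Post-T mice at either end. Icam1, the ligand, held a narrower range, at 59.4 and 62.0 CPM in Ctrl, 90.4 and 82.8 in Pre-T and 57.0 and 47.0 in Post-T. Without Post-T 1, the log2 fold change of Itgam in Post-T against Ctrl went from 2.65 (SE 0.85) to -0.04 and that of Itgb2 from 1.26 (SE 0.54) to -0.05.

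**Figure D3:**
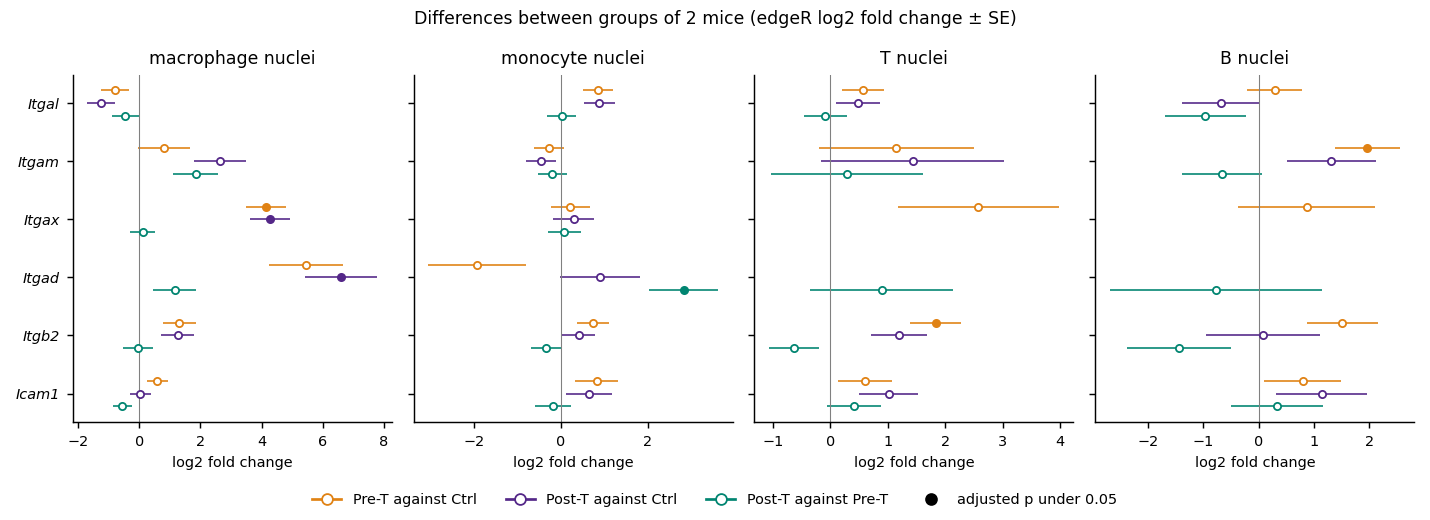
Log2 fold changes of the members between groups of 2 mice, with SE bars, in the macrophage, monocyte, T and B nuclei, with filled points for an adjusted p under 0.05 in edgeR. Of those drawn, Itgax and Itgad in macrophages gave the largest differences from Ctrl, and pairs in which either group had no UMI are not drawn.

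Tests were run over all genes in 5 immune classes, since NK and conventional dendritic nuclei fell under 10 in Post-T mice, and all 6 members passed the minimum of 3 counts in each. In Pre-T against Ctrl, 3 of the 30 member tests passed an adjusted p of 0.05 (edgeR quasi-likelihood test, Benjamini-Hochberg over all genes of a class), beside 2.43% of all gene tests (1.04% in the higher direction). These were Itgax in macrophages, Itgb2 in T nuclei and Itgam in B nuclei, all higher in Pre-T. In Post-T against Ctrl, 2 of 30 passed, Itgax and Itgad in macrophages, both higher, beside 1.67% (0.71% in the higher direction). Without Ctrl 1 or without Ctrl 2, Itgax and Itgad in macrophages were called in neither contrast with Ctrl (edgeR adjusted p of 0.151 to 0.630). In Post-T against Pre-T, 1 of 30 passed, Itgad in monocytes, beside 1.08% (0.55% in the higher direction). Within macrophages alone 0.325%, 1.13% and 0.0911% of genes were called in the 3 contrasts. These shares lie above the background, all calls are in the higher direction, and the tests include values that chose the members, so nothing is read from them. At an unadjusted p under 0.05 the counts were 9, 8 and 3. In macrophages these were 3, 5 and 1 of 6, beside 2004, 2325 and 1687 of 17562 genes. Monocytes gave 2, 1 and 1 (1761, 1520 and 1517 of 14505) and T nuclei 1, 2 and 0 (2017, 1532 and 1362 of 14836). B nuclei gave 3, 0 and 0 (1528, 1164 and 1098 of 13610) and plasmacytoid dendritic nuclei 0, 0 and 1 (703, 647 and 709 of 10789). DESeq2 called 2, 2 and 0, beside 1 to 220, 8 to 372 and 10 to 85 genes per class. With a minimum of 10 counts per gene in place of 3, no member passed in edgeR (7, 6 and 2 at an unadjusted p under 0.05), and 0, 52 and 0 of 14659 genes were called in macrophages, against 57, 198 and 16 of 17562.

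The macrophages of the 3 groups fell into different clusters. Cluster 20 held 242 of the 249 Ctrl macrophages and led with Cd163, the haptoglobin-haemoglobin receptor, and the Kupffer genes Clec4f and Timd4. Cluster 11, with 192 nuclei of Ctrl 1 and 207 of Ctrl 2 among its 400, stayed unnamed and outside these sums. It had 7 macrophage and 3 hepatocyte markers raised, with Cd163 and Clec4f among its leading genes. With the unnamed clusters 11 and 32 counted as macrophages, 4, 2 and 1 of 30 member tests passed in edgeR, in the order of contrasts above. Clusters 6, 8, 9 and 17 held most Pre-T macrophages, clusters 21 and 23 most of Post-T 1 (221 and 202 of 483), and cluster 12 most of Post-T 2 (323 of 364). A difference between groups in the macrophage sums is therefore also a difference between clusters.

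**Figure D4:**
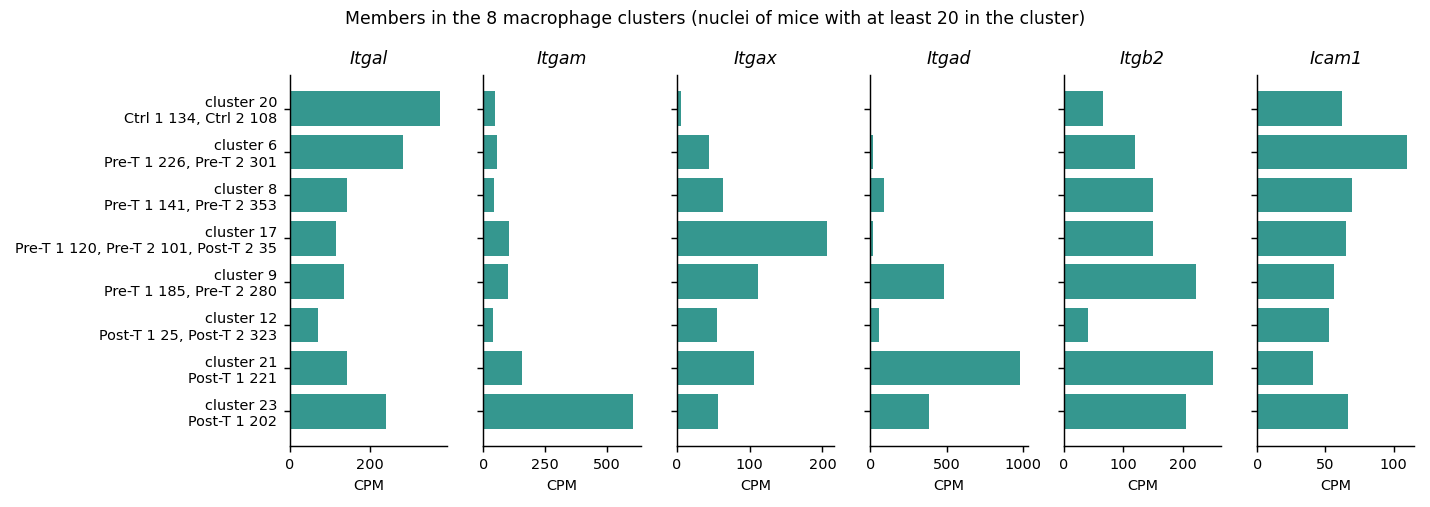
The 6 members in each macrophage cluster, as CPM, with the mice that gave at least 20 nuclei to a cluster and their numbers of nuclei. Itgad was found mainly in clusters 9, 21 and 23, Itgam in cluster 23, Itgax in cluster 17 and Itgal in cluster 20.

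Among the 8 named macrophage clusters, Itgad was highest in cluster 9 within the Pre-T mice. The unnamed cluster 32, described among the flagged results, held more in both of these mice. The first leading gene of cluster 9 was 4931431B13Rik, which lies inside Itgad. Only the 6 members were kept out of the variable genes, and the part of 4931431B13Rik in forming this cluster was not tested. The nuclei of cluster 9 held 501 CPM of Itgad in Pre-T 1 and 480 in Pre-T 2. In the same mice cluster 6 held 12.2 and 17.3, cluster 8 held 77.4 and 87.1 and cluster 17 held 15.4 and 16.5. Of these clusters, cluster 9 was the highest and cluster 8 the next in both mice, while clusters 6 and 17 were low and close. Cluster 9 was 185 of 683 and 280 of 1042 of the macrophages of these mice. Cluster 6 carried the Kupffer genes, with Clec4f at 893 CPM and Vsig4 at 930, while cluster 9 held 49.0 and 128. Cluster 17 led with Gpnmb, a gene of lipid-laden macrophages, at 1125 CPM, and it had the most Itgax of the 8 clusters, at 186 CPM in Pre-T 1 and 168 in Pre-T 2.

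In Post-T 1, cluster 21 held 997 CPM of Itgad and cluster 23 held 356, together with 622 CPM of Itgam. Cluster 21 led with Itgad itself and rests on only 3 raised macrophage markers, Adgre1, Csf1r and C1qa. Cluster 23 led with Rbfox1 and Negr1, genes better known from neurons, and its nuclei had 4.64 times the median UMIs of their library. In Post-T 2, cluster 12 held 62.7 CPM of Itgad and 34.2 of Itgam, which shows how far apart these mice were. Clec4f was at 1.93 CPM in cluster 21 and 5.61 in cluster 23, against 2133 in cluster 20 of the Ctrl mice.

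**Figure D5:**
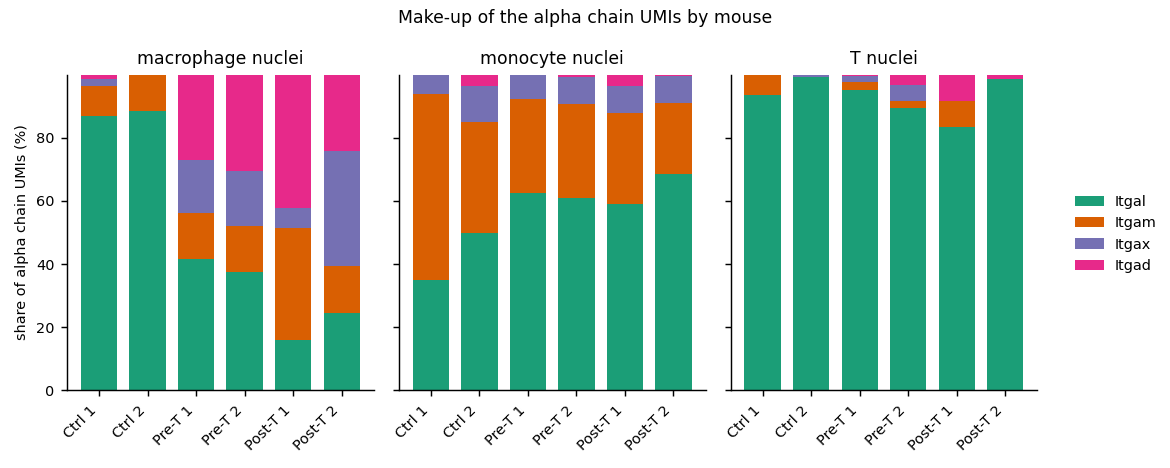
The share of each alpha chain in the UMIs of all 4, per mouse, in macrophage, monocyte and T nuclei (stacked bars, %). In macrophages Itgal gave 86.8% and 88.3% in the Ctrl mice and 15.98% to 41.5% in the Western diet mice, whereas in T nuclei it gave 83.3% to 99.1% in all 6.

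Counted as shares of the UMIs of the 4 alpha chains, the make-up of macrophages differed between Ctrl and the Western diet mice. Itgal gave 86.8% and 88.3% of these UMIs in Ctrl, 41.5% and 37.5% in Pre-T and 15.98% and 24.6% in Post-T. Itgad gave 1.39% and 0% in Ctrl, 26.9% and 30.4% in Pre-T and 42.2% and 24.2% in Post-T. Post-T 2, where Itgad and Itgam were low, was the mouse with the largest share of Itgax, at 36.5%. In monocytes Itgal and Itgam made up most of the alpha chain UMIs in every mouse, with Itgal at 35.1% in Ctrl 1, at 56 of 112 UMIs in Ctrl 2 and 59.1% to 68.5% in the Western diet mice.

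Macrophages with an Itgad UMI were set against those without one in the same mouse, after thinning to 500 UMIs, and Pre-T 1, Pre-T 2 and Post-T 1 had at least 10 nuclei on each side (44, 70 and 105 with Itgad). With 3 mice the exact sign-flip permutation test cannot go below p = 0.25, so the 8 genes compared are described by direction. The Kupffer gene Clec4f was detected in 2.27%, 10.0% and 0% of the nuclei with Itgad and 15.02%, 16.2% and 0.794% of those without, lower in 3 of 3 mice. Vsig4, a complement receptor of Kupffer cells, was at 0%, 7.14% and 3.81% against 18.2%, 16.6% and 4.50%, also lower in 3 of 3. Gpnmb was lower in 3 of 3 as well, and Itgax was higher in 3 of 3, at 4.55%, 7.14% and 5.71% against 4.07%, 4.32% and 3.44%. These directions rest on few nuclei. Among the nuclei with Itgad, Clec4f was detected in 1, 7 and 0 and Vsig4 in 0, 5 and 4. Gpnmb was detected in 1, 1 and 1 of them and Itgax in 2, 5 and 6. Trem2, Itgam, Itgal and Itgb2 went in both directions over the mice.

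4931431B13Rik, one of the antisense genes inside Itgad, was at 0 CPM in both Ctrl mice, 80.5 and 60.5 in Pre-T, and 40.2 and 3.53 in Post-T macrophages. It was detected in 15.9% and 21.4% of the thinned nuclei with Itgad in Pre-T 1 and 2, against 2.97% and 2.47% of those without, and in 1.90% against 1.59% in Post-T 1. The genes thus went together in the Pre-T mice, and Post-T 1, with the most Itgad, did not show the same gap. Cox6a2, the other known gene inside Itgad and a marker of plasmacytoid dendritic cells, was at 20.6 and 53.5 CPM in that class in Ctrl and 50.2 and 29.5 in Pre-T, where Itgad was at 41.2, 53.5, 138 and 58.9. The Itgad level of plasmacytoid dendritic nuclei rests on 4, 2, 11 and 8 UMIs, and with strand use unknown the part of Cox6a2 and Gm39091 in it was not tested.

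Monocytes carried the most Itgal and Itgam on average over mice, with macrophages above them for Itgal in Ctrl 1 and for Itgam in Post-T 1. Itgal was at 331 and 631 CPM in Ctrl, 853 and 723 in Pre-T and 739 and 705 in Post-T, so all 4 Western diet mice were above Ctrl, with log2 fold changes of 0.86 (SE 0.35) and 0.88 (SE 0.35) that did not pass (edgeR adjusted p = 0.202 and 0.240, beside 3.80% and 2.56% of genes called). Itgam was at 555 and 440 CPM in Ctrl, 405 and 355 in Pre-T and 358 and 233 in Post-T, below Ctrl in each Western diet mouse, with log2 fold changes of -0.26 (SE 0.34) and -0.46 (SE 0.35). Here too the clusters differed, as cluster 15, which led with F13a1 and Vcan and held all but 4 of the 111 Ctrl monocytes, was a minority in the Western diet mice. In cluster 15 alone, Itgal was at 331 and 577 CPM in Ctrl, 349 and 444 in Pre-T and 275 in Post-T 1. Ctrl and Pre-T overlapped there, and Post-T 1 lay below all 4 of them, whereas over the whole class it lay above both Ctrl mice. Clusters 5 (Pre-T) and 18 (Post-T), which led with Ace or with Ldlrad3 and carried Treml4, held 821 to 1055 and 725 to 851 CPM.

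Itgad in monocytes was at 0 and 45.1 CPM in Ctrl (0 and 4 UMIs), 0 and 9.86 in Pre-T (0 and 6 UMIs) and 44.2 and 6.13 in Post-T (19 and 1 UMIs). The groups overlapped in every pairing, Ctrl 2 was the highest of the 6, and the log2 fold change of 2.82 (SE 0.79) in Post-T against Pre-T that passed the edgeR test (adjusted p = 0.0203) rests on 20 against 6 UMIs, beside 2.45% of genes called. Itgax overlapped between all groups in monocytes, at 57.9 and 147 CPM in Ctrl, 108 and 100 in Pre-T and 109 and 85.8 in Post-T. Itgb2 was at 223 and 180 CPM in Ctrl, 315 and 309 in Pre-T and 270 and 165 in Post-T, above Ctrl in both Pre-T mice.

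In T nuclei Itgal made up nearly all alpha chain UMIs. Itgal was at 119 and 325 CPM in Ctrl, 395 and 294 in Pre-T and 275 and 281 in Post-T, with overlap and no call. In Post-T no member was called in T nuclei against Ctrl, beside 2.28% of genes, or against Pre-T, beside 1.41% (2 and 0 of 6 at an unadjusted p under 0.05 in edgeR). Itgb2 was at 20.6 and 69.8 CPM in Ctrl T nuclei (5 and 23 UMIs), 194 and 154 in Pre-T (75 and 84 UMIs) and 54.9 and 120 in Post-T (6 and 29 UMIs). Both Pre-T mice were above all others, and Itgb2 rose in Pre-T against Ctrl by a log2 fold change of 1.83 (SE 0.45, edgeR adjusted p = 0.0118, beside 3.92% of genes called). The share of T nuclei with an Itgb2 UMI was 3.597% and 9.28% in Ctrl, 22.4% and 20% in Pre-T and 6.76% and 19.2% in Post-T, against 0.196% to 6.51% of endothelial nuclei at median depths of 1182 to 2025 and of 1216 to 1613 UMIs in T nuclei. The 12 macrophage markers gave 169 and 212 CPM in Ctrl T nuclei, 465 and 915 in Pre-T and 321 and 116 in Post-T, and the neutrophil and myeloid kinase gene Fgr also rose (log2 fold change 4.39, SE 0.95, adjusted p = 0.00413). The markers and Fgr were higher in Pre-T than in Ctrl, as Itgb2 was. Within Pre-T and within Post-T, the mouse with the higher marker level had the lower Itgb2. The part of the markers and of Fgr in the Itgb2 result was not tested. Without Ctrl 1 the Itgb2 call was lost (log2 fold change 1.37), and DESeq2 did not call Itgb2 (adjusted p = 0.228).

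B nuclei held little of any member. Itgal was at 52.8 and 72.8 CPM in Ctrl, 118 and 48.2 in Pre-T and 41.7 and 35.3 in Post-T. Itgam, which marks the B-1 cells among B cells, was at 36.1 and 4.70 CPM in Ctrl (13 and 2 UMIs), 81.0 and 89.6 in Pre-T (13 and 13 UMIs) and 167 and 21.2 in Post-T (4 and 3 UMIs). It rose in Pre-T against Ctrl by a log2 fold change of 1.97 (SE 0.59, edgeR adjusted p = 0.0297, beside 3.34% of genes called). No member was called in B nuclei in the other contrasts, beside 1.68% of genes in Post-T against Ctrl and 1.18% in Post-T against Pre-T (0 and 0 of 6 at an unadjusted p under 0.05). The call of Itgam was lost without Ctrl 2, the mouse with 2 UMIs (1.03, adjusted p = 0.933), without either Pre-T mouse, and in DESeq2 (adjusted p = 1.00). In Pre-T 2 the macrophage markers in B nuclei gave 965 CPM, against 91.7 to 389 in the other 5 mice, with Marco, Trem2 and Gpnmb at 0, and their part in the result was not tested.

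NK nuclei had Itgal at 301 and 371 CPM in Ctrl and 424 and 271 in Pre-T, and Itgb2 at 147 and 142 against 246 and 195. The Itgb2 values did not overlap, yet each Post-T mouse had 7 NK nuclei, so the class was not tested with 10 nuclei as the minimum, and with 5 edgeR gave no call (0, 2 and 2 of 5 members at an unadjusted p under 0.05, in the order of contrasts above). Conventional dendritic nuclei had Itgax at 253 and 300 CPM in Ctrl, 274 and 321 in Pre-T and 118 and 197 in Post-T, the last from 4 and 3 UMIs, and Itgal at 202 and 200, then 91.2 and 107, then 29.6 and 0. The Itgal levels of Ctrl and Pre-T did not overlap, on 18 and 29 UMIs in all. In plasmacytoid dendritic nuclei neither edgeR nor DESeq2 called a member in any contrast (0, 0 and 1 of 6 at an unadjusted p under 0.05 in edgeR), where 0.806%, 0.547% and 0.25% of genes were.

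Icam1 was the member least tied to leukocytes, and 47.0% of its UMIs in kept nuclei lay in nuclei of no named class. In endothelial nuclei, which present Icam1 to arriving leukocytes, it was at 21.8 and 31.4 CPM in Ctrl, 61.7 and 65.0 in Pre-T and 38.5 and 20.7 in Post-T. The Pre-T mice were above all others, but the difference did not pass in edgeR or DESeq2. In T nuclei Icam1 was at 20.6 and 63.7 CPM in Ctrl, 87.8 and 51.5 in Pre-T and 91.6 and 70.1 in Post-T, and in monocytes at 49.7 and 78.9, then 80.7 and 123, then 53.5 and 123, with overlap in most pairings.

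Over 51 sums of a class in a mouse, which share libraries and depth, the genes most like each member were named by Pearson's r of log2(CPM + 10), as a description. Itgal was most like Myo1f (r = 0.924), Apbb1ip (0.914), which encodes the integrin adaptor RIAM, and Ptprc (0.907), the CD45 gene. Itgb2 was most like Cd244a (0.904) and Myo1f (0.892), followed by Itgal (0.869). Itgam was most like Sirpb1c (0.871) and Spi1 (0.862), the PU.1 gene, and Itgax like Cd244a (0.832) and Fgr (0.823). Itgad was most like Gm14636 (0.750), the antisense gene 4931431B13Rik (0.746) and Clec12a (0.716), and Icam1 like Adam17 (0.710) and Eri1 (0.710). Between members, Itgad had r = 0.377 with Itgb2 and 0.254 with Itgal, well below the 0.869 of Itgal with Itgb2.

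Few other genes of the pathway passed the test in macrophages. Of 25 genes of integrin activation and adaptors, none passed in edgeR in Pre-T against Ctrl (3 at an unadjusted p under 0.05) and 1 in Post-T against Ctrl (11 at an unadjusted p under 0.05, beside 2325 of all 17562 genes). This was Vav3, which rose by a log2 fold change of 1.98 (SE 0.31, edgeR adjusted p = 0.0163), beside 1.13% of all genes in that class. Vav3 was at 210 and 171 CPM in Ctrl, 501 and 390 in Pre-T and 671 and 590 in Post-T, above Ctrl in 4 of 4 Western diet mice. Fermt3, which encodes the kindlin of blood cells, was at 256 and 322, then 253 and 214, then 174 and 176 CPM, and Tln1, the talin gene, at 122 and 147, then 186 and 198, then 361 and 166. The median log2 fold change of the 25 genes was 0.24 in Pre-T and 0.45 in Post-T against Ctrl, beside 0.29 and 0.15 over all genes. None of 13 ligands and counter-receptors passed in edgeR in macrophages in any of the 3 contrasts (1, 1 and 0 at an unadjusted p under 0.05), and none of 18 other integrin chains (2, 3 and 0).

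Among 8 complement receptor genes, which include Itgax, Itgam and Itgb2, Vsig4 fell in Post-T against Ctrl macrophages by 2.46 on the log2 scale (SE 0.36, edgeR adjusted p = 0.0119). It was at 882 and 1194 CPM in Ctrl, 577 and 527 in Pre-T and 119 and 196 in Post-T, in order with no overlap between any groups. In the macrophage class as a whole Itgax was higher, so 1 complement receptor of the list was lower and another higher in Post-T than in Ctrl. Ctrl and Post-T macrophages lay mostly in different clusters. Vsig4 is also one of the 12 macrophage markers, and cluster 21 was named without it. The Itgax call was lost without Ctrl 1 or without Ctrl 2. Of 18 other integrin chains tested in monocytes, 2 were called lower in Pre-T against Ctrl, beside 3.80% of all genes, and 1 lower and 1 higher in Post-T against Ctrl, beside 2.56%. Itga6, the laminin-binding chain, fell by 4.07 in Pre-T and by 3.80 in Post-T on the log2 scale (edgeR adjusted p = 7.8e-08 and 2.6e-05), from 166 and 113 CPM in Ctrl to 0 to 11.6 in the Western diet mice. Itga8 fell by 2.89 in Pre-T (SE 0.73, edgeR adjusted p = 0.00437), from 66.2 and 78.9 CPM in Ctrl to 10.2 and 6.57, and was at 2.33 and 36.8 in Post-T, with no call. Itgb3 rose in Post-T monocytes (log2 fold change 2.89, SE 0.85, edgeR adjusted p = 0.0314), from 8.28 and 11.3 CPM in Ctrl to 72.1 and 42.9. Ctrl monocytes lay almost all in cluster 15 and Western diet monocytes mostly in clusters 5 and 18. The differences of Itga6, Itga8 and Itgb3 are therefore also differences between clusters.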

How the data were processed

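Single-nucleus RNA-seq libraries from droplets were deposited for the livers of 6 mice, 2 per group, and the authors made the deposited UMI counts per gene and nucleus with Cell Ranger 6.1.1 on mm10, per the labels and the study's methods. Whether intronic reads and strand entered the counts is not given in the sources used here. The members and gene lists were chosen with earlier results of these data known. Nuclei with over 200 and under 5000 genes and under 5% mitochondrial UMIs were kept. They were clustered in scanpy 1.11.5 without integration (30 principal components, 15 neighbours, Leiden resolution 1 for all and 2 for immune nuclei, random seed 1). A cluster was named from at least 3 raised markers of 1 class, and where 2 immune classes had them the leading genes decided. Scrublet called 5 nuclei, too few to have worked, so no doublet was removed.

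Counts were summed per mouse and class, and every gene that reached 3 counts in all 6 mice together went into a fit with edgeR 4.0.16 (quasi-likelihood test, TMM, 6 mice in 1 fit) in classes with at least 10 nuclei in each mouse, with Benjamini-Hochberg adjustment over all genes of a class. Each group held 2 mice, so each fit had 3 residual degrees of freedom, to which edgeR added degrees of freedom borrowed from other genes. With size factors of the DESeq2 type the median log2 fold change of all genes in macrophages, Pre-T against Ctrl, moved from 0.29 to 0.16. On simulated counts of the macrophage sums, 60% to 77% of genes changed by 2 on the log2 scale and 96% to 99% of those changed by 3 were recovered, and 13.8% to 17.6% of calls were false, above the nominal 5%. Intervals on counts (exact Poisson) and shares (exact binomial, 95%) cover counting error only, and a count of 0 was taken to allow up to 3. Named genes were the members, the 5 genes most like each (at least 200 UMIs, sums of at least 20 nuclei) and genes of 4 pathway lists. DESeq2 1.42.0, other filters, leaving out each mouse, thinning and other clusterings were the alternatives. The labels do not say that a replicate number marks a shared litter or day. Promoter sequences and motifs are from RefSeq, GRCm38.p6, and gene positions from GENCODE for GRCm38.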

Additional observations from a re-analysis of the deposited data

Results flagged for a closer look

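Itgad in monocyte nuclei differed between the Post-T and Pre-T mice by a log2 fold change of 2.82 in edgeR, while the same gene went the other way, with no call, in Pre-T against Ctrl (-1.92, SE 1.13). It was picked out because the 2 Western diet groups differed in their change from the same Ctrl mice, by a test of that difference. The value rests on 20 against 6 UMIs, of which 19 were in Post-T 1.

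Itgad was detected in 69.5% of the 131 nuclei of cluster 32 (counting interval 60.8% to 77.2%), which stayed unnamed because it showed markers of both macrophages and B cells. It was picked out because these nuclei are in no class that was compared and no Ctrl mouse showed such a share in macrophages. Pre-T 2 gave 116 of the nuclei and Pre-T 1 the other 15, with 618 and 920 CPM of Itgad.

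Nuclei with 5000 genes or more were left out by the filter, and 23 of them were macrophage-like by their own markers. All came from Pre-T 1, Pre-T 2 and Post-T 1. They held Itgad at 20.8 CPM from 10 UMIs, above the 0 and 6.25 CPM of Ctrl macrophages, which is why they were picked out, but far below the 144, 150 and 530 CPM of the macrophages kept from the same 3 mice. Itgad was not particular to them among the nuclei left out. The 15 endothelial-like nuclei held 51.9 CPM from 21 UMIs, and the hepatocyte-like nuclei 9.53 CPM. Groups of 2 mice cannot be searched for single mice that stand apart.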

How the results depend on the processing

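The counts of member tests that passed were 3, 2 and 1 of 30 for Pre-T with Ctrl, Post-T with Ctrl and Post-T with Pre-T, and in that order they were 5, 5 and 3 with every gene of at least 1 count and 0, 0 and 0 with at least 10 counts. They were 6, 0 and 0 when only the 4 mice of each comparison were fitted. DESeq2 gave 0, as did thinning to 500 UMIs and an immune resolution of 1, for Post-T with Pre-T. Naming each nucleus on its own, which left only macrophages to test, gave 0 for Pre-T and 1 for Post-T with Ctrl. Leaving out 1 mouse gave 1 to 6, 0 to 4 and 0 to 3. Without Ctrl 1 these were 1, 0 and 0, and without Post-T 1 the last was 2. The replicate block gave 4 calls for Post-T with Ctrl. The mice share only a number, with 2 pairs and no label for a shared litter or day. Deviations of same-numbered mice correlated at -0.28 in macrophages for Pre-T with Ctrl, -0.036 for Post-T with Ctrl and 0.19 for Post-T with Pre-T. The crossed replicate block, added after seeing the data, gave 5, 4 and 0. In edgeR the degrees of freedom borrowed from other genes were 7.78 in macrophages with at least 3 counts and 4.76 with at least 10. With at least 3 counts they were 31.9 in T nuclei and not finite in monocyte, B and plasmacytoid dendritic nuclei. The calls in monocytes and B nuclei thus rest on a spread shared over genes.

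With 1 mouse left out, the macrophage log2 fold changes in Post-T against Ctrl ran from -0.037 to 3.52 for Itgam and from -0.052 to 1.90 for Itgb2. Those in Post-T against Pre-T ran from -0.79 to 2.70 for Itgam, from -1.05 to 1.98 for Itgad and from -0.039 to 0.28 for Itgax, and in each the sign turned on Post-T 1 or, for Itgax, Post-T 2. Itgax in that contrast was also -0.47 with nuclei named on their own, -0.26 with members among the variable genes and -0.014 without cluster 21, from 0.11. The difference of Itgam between nuclei with and without Itgad ran from -1.23 to 0.38 percentage points, and that of Itgb2 was 17.7 without thinning, from -0.57. The mean Icam1 level in monocytes was 132 CPM when thinned, from 84.8. For Itgax and Itgad in macrophages against Ctrl, each of 22 alternatives kept the higher direction, but Itgax was called in 16 for Pre-T and 17 for Post-T and Itgad in 12 and 18, with adjusted p up to 0.609, 0.175, 0.630 and 0.445. Without Ctrl 1, which held all Ctrl UMIs of both genes, the fitted values went to 9.91 and 10.0 for Itgax and to 10.6 and 11.8 for Itgad, with no call, and without Ctrl 2 none of the 4 was called either. Without Post-T 1 that of Itgad in Post-T was 4.34, still called. Thinning took Itgax to 7.40 and 7.48. The cause of these changes was not tested. Leaving out called doublets was not run, since the caller had not worked, and leaving out the 5% highest doublet scores, also added later, gave 3, 2 and 1. Depth limits Itgad and Itgax in Ctrl macrophages, at 2 and 3 UMIs.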
